A study of Homo sapiens with 3 samples.

Results

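Cholesterol and fatty acids are built from acetyl-CoA by a short set of enzymes whose genes are largely under the control of the SREBP transcription factors. When the sterol content of the endoplasmic reticulum is low, SCAP escorts SREBP to the Golgi, where it is cleaved and released to the nucleus, and when sterols are plentiful the INSIG proteins hold SCAP and SREBP back. Tumor cells, including those of the colon, draw on both pathways for membrane lipids and for the prenyl groups of signaling proteins. The genes described here are 32 members of these pathways, chosen by name among the non-control probes of the arrays, out of 22620 genes measured. They comprise 18 genes of the cholesterol branch, 6 regulators and transport genes, and 8 genes of the fatty acid branch.

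The arrays came from HCT116 cells, a human colorectal cancer cell line, grown in McCOY's medium with serum and transfected by Lipofectamine. There was 1 array each of SMARCA4-KD1 and SMARCA4-KD2, in which small interfering RNA targeted SMARCA4, a DNA-dependent ATPase that drives SWI/SNF remodelers, and 1 array of the control cells labelled NC. The time after transfection was not given in the sources used here. The labels list a pair of siRNAs and do not tie either to an array. The sample titles name SMARCA4 while the treatment field names PRMT1, and the numbers of the knockdowns were taken from the treatment field.

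The signal of the SMARCA4 probe was 14026 in NC and 3960.2 and 4129 in the knockdowns, in the order SMARCA4-KD1 and SMARCA4-KD2, so that 26.6% and 28.8% of the NC level was left. PRMT1 was at 120% and 129% of NC. Signal is the intensity of a probe after the scanner software's background subtraction, and levels are log2 of it after the array's own 75th percentile was subtracted. Of 8 colon epithelial markers, 7 were measured, with EPCAM signals between 30570 and 40025, and VIL1 was not well above background. Of 6 fibroblast markers only COL1A1 was well above background, and of 5 leukocyte and 4 endothelial markers 3 and 2 were, with PTPRC between 37.0 and 49.4. Both knockdowns were hybridized on slide 1 and NC on slide 2, so slide and knockdown cannot be told apart. Each fold compares 1 array with 1 array without a replicate, and this number of arrays sets the precision. In bulk RNA of this kind, less RNA per cell and fewer cells with the RNA cannot be told apart.

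All 32 genes were measured, and all 40 of their probes were well above background on the 3 arrays, with none saturated or marked as an outlier. HMGCS1 was at 40.1% and 42.2% of NC after SMARCA4 knockdown, and TM7SF2 and SCAP were higher than NC. The methods of the study set a threshold of 1.5-fold together with a p value, and only the fold was applied in these counts. The members were chosen with earlier results of these data known, so their shares beside all genes are descriptive. At 1.5-fold, 7 of the 32 genes were lower than NC in both knockdowns, which is 21.9% of them, against 8.05% of all genes measured. These were HMGCS1, ACAT2, MSMO1, HSD17B7, EBP, INSIG2 and FADS2. Of these, 5 belong to the 18 genes of the cholesterol branch. TM7SF2 and SCAP were at least 1.5-fold higher in both, or 6.25% of the members against 6.35% of all genes, so the share of higher genes was near the background. In SMARCA4-KD1 alone, 9 of the members lay at least 1.5-fold below NC and 2 above, against 12.3% and 11.2% of all genes. In SMARCA4-KD2 the numbers were again 9 below and 2 above, against 9.77% and 10.1%. By any amount, 23 of the 32 were below NC in both knockdowns (71.9%, against 39.3% of all genes) and 7 were above it in both (against 41.1% of all genes).

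The median log2 difference of the 32 genes from NC came to -0.30 for SMARCA4-KD1 and -0.32 for SMARCA4-KD2, beside medians of -0.0038 and 0.02 over all genes. By branch, the median of the mean over both knockdowns was -0.39 for the cholesterol genes, -0.34 for the fatty acid genes and -0.16 for the regulators and transport genes. When the arrays were scaled to their spike-in controls instead, the median of all genes moved up to 0.34 and that of the 32 genes to 0.0021, which leaves the distance between both medians at -0.34 by construction. Without the filter on dim probes the median of all genes was -0.15, and the members lay below it by less, at a distance of -0.16. The direction of the members is therefore given relative to the bulk of genes on each array. With spike-in scaling HMGCS1 was the only gene still at least 1.5-fold lower in both knockdowns.

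**Figure D1:**
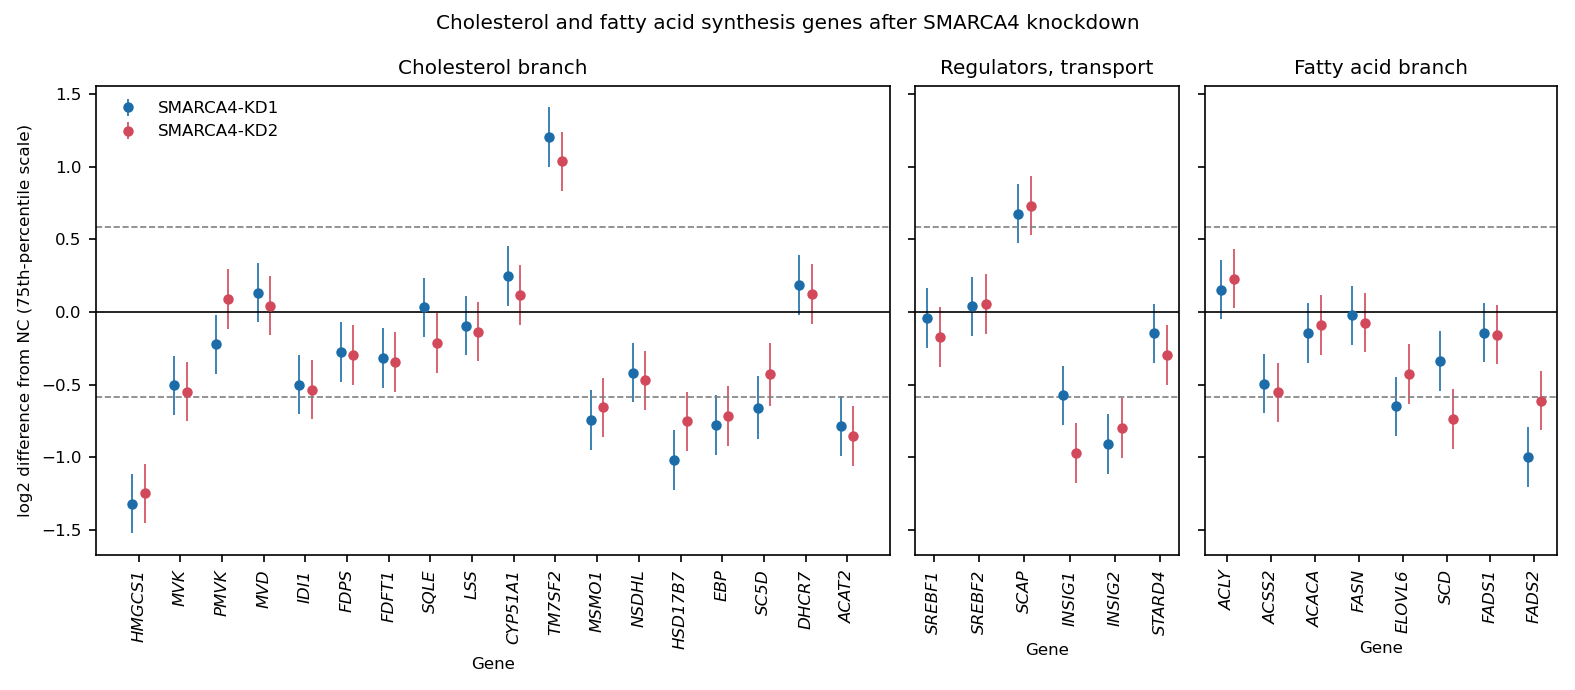
The log2 difference from NC (y axis, 75th-percentile scale) is shown for each of the 32 genes (x axis, in 3 panels by branch) in SMARCA4-KD1 (blue) and SMARCA4-KD2 (red). Points are single arrays, bars are the error of the extraction software, and dashed lines mark 1.5-fold; HMGCS1 is lowest at -1.32 and -1.25, and TM7SF2 and SCAP are the only points above the upper line.

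The largest difference lay at the entry to the mevalonate pathway. HMGCS1, which makes HMG-CoA from acetoacetyl-CoA and acetyl-CoA, had a signal of 2831 in NC, of 1205 in SMARCA4-KD1 and of 1221 in SMARCA4-KD2. Both knockdown arrays were well below NC, by 2.49-fold and 2.37-fold, log2 differences of -1.32 and -1.25, each with an extraction error of 0.20. Among all genes, 1.15% had a lower mean difference than HMGCS1. In hg19 the HMGCS1 probe spans 43290117 to 43290176 of chromosome 5. ACAT2, the cytosolic thiolase that supplies acetoacetyl-CoA one step earlier, had a signal of 7471 in NC, of 4608 in SMARCA4-KD1 and of 4234 in SMARCA4-KD2. This was 1.72-fold and 1.80-fold lower than NC, and both knockdown arrays were within 0.07 of each other on the log2 scale.

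The kinases, the decarboxylase and the synthases that turn mevalonate into farnesyl diphosphate were nearer to NC. MVK, mevalonate kinase, had signals of 5761, 5383 and 7697 in SMARCA4-KD1, SMARCA4-KD2 and NC, log2 differences of -0.50 and -0.55 that stayed short of 1.5-fold. IDI1, which isomerizes isopentenyl diphosphate, had signals of 3719, 3499 and 4951 and log2 differences of -0.50 and -0.53. Both genes were lower than NC by nearly the same amount on either knockdown array. FDPS, farnesyl diphosphate synthase, had log2 differences of -0.27 and -0.30, close to the extraction error of 0.20, and a separate probe for its pseudogene FDPSP2, which resembles it in sequence, had -0.24 and -0.23. PMVK, phosphomevalonate kinase, lay on either side of NC (-0.22 and 0.09). MVD, the diphosphomevalonate decarboxylase, was near NC (0.13 and 0.04). Of these 6 genes from HMGCS1 to FDPS, only HMGCS1 was at least 1.5-fold from NC. It was lower in both knockdowns, where 8.05% of all genes were.

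Past farnesyl diphosphate, the steps before the ring closes showed small differences. FDFT1, squalene synthase, had log2 differences of -0.32 and -0.34, SQLE, squalene epoxidase and a control point of the pathway, had 0.03 and -0.21, and LSS, which closes the ring to lanosterol, had -0.09 and -0.14. CYP51A1, the first demethylase of lanosterol, was above NC by 0.25 and 0.12. None of these genes was 1.5-fold from NC in either knockdown.

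The next enzyme stood out in the other direction. TM7SF2, a sterol reductase that acts on the product of CYP51A1, had a signal of 408 in NC, of 997 in SMARCA4-KD1 and of 855 in SMARCA4-KD2. Both knockdown arrays were above NC, 2.30-fold and 2.05-fold, log2 differences of 1.20 and 1.03. Of all genes, 98.1% had a lower mean difference. In hg19 its single probe spans 64880991 to 64881050 of chromosome 11.

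The next genes encode the enzymes that remove methyl groups from the sterol ring, and 2 of these 3 were at least 1.5-fold lower in both knockdowns. MSMO1, the methylsterol monooxygenase, had a signal of 973 in NC, of 618 in SMARCA4-KD1 and of 631 in SMARCA4-KD2. It was 1.67-fold and 1.58-fold lower, with both knockdown arrays at nearly the same level. HSD17B7, the ketosteroid reductase of the complex, had signals of 489, 567 and 933 by its brightest probe, 2.03-fold and 1.68-fold lower than NC. NSDHL, the dehydrogenase that acts between them, had log2 differences of -0.42 and -0.47 and stayed short of 1.5-fold. EBP, the sterol isomerase that follows, had signals of 9346, 9406 and 15093 and was 1.71-fold and 1.64-fold lower. SC5D, a sterol desaturase measured near the dim end with signals of 81.0, 91.5 and 120.5, was lower than NC by 1.58-fold in SMARCA4-KD1 but by 1.35-fold in SMARCA4-KD2. DHCR7, which makes cholesterol in the final reduction of one route, was slightly above NC (0.19 and 0.12). Thus of the 11 genes from FDFT1 to DHCR7, 3 were at least 1.5-fold lower and 1 was at least 1.5-fold higher in both knockdowns, where 8.05% and 6.35% of all genes were.

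**Figure D2:**
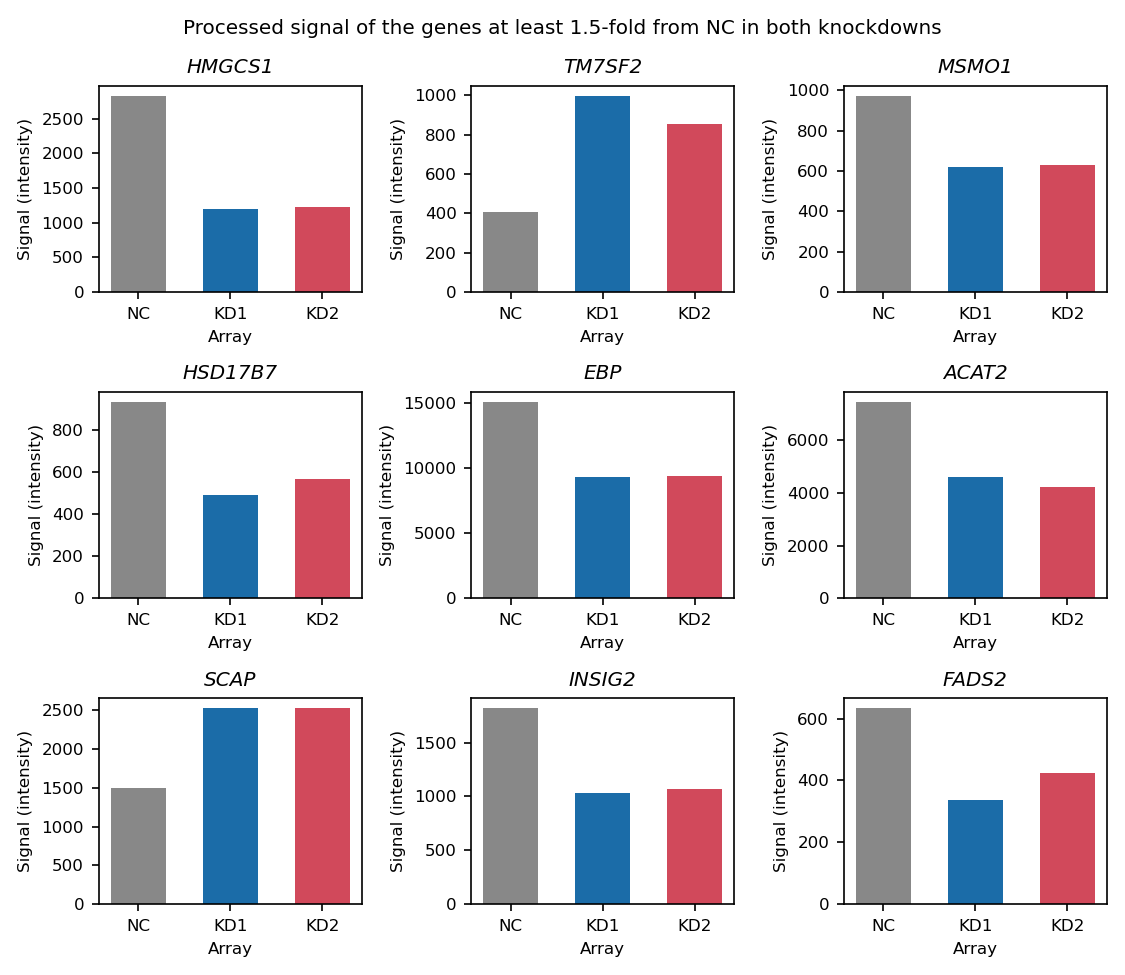
Processed signal (y axis, linear intensity from 0, a separate scale in each panel) on the NC, SMARCA4-KD1 and SMARCA4-KD2 arrays (x axis, 1 array per bar, so no error bar) for the 9 genes at least 1.5-fold from NC in both knockdowns. In 7 panels both knockdown bars are below the NC bar, and in the panels of TM7SF2 and SCAP both are above it.

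Among the regulators, the transcription factor genes themselves were close to NC while their partners differed. In the order SMARCA4-KD1, SMARCA4-KD2 and NC, SREBF1 had signals of 20997, 18475 and 20343, and SREBF2 had 2564, 2499.5 and 2353. Their log2 differences lay between -0.17 and 0.06, within the extraction error of 0.20. SCAP, the escort of SREBP, had signals of 2528, 2531 and 1491 and was 1.60-fold and 1.66-fold higher than NC. INSIG2, which retains SCAP in the endoplasmic reticulum, had signals of 1031, 1073 and 1823 and was 1.88-fold and 1.74-fold lower. INSIG1, its paralog and itself a target of SREBP, had signals of 2646, 1938 and 3710, so that it was lower by 1.49-fold in SMARCA4-KD1 but by 1.96-fold in SMARCA4-KD2. SCAP was thus above NC and both INSIG genes were below it on either knockdown array. STARD4, which carries cholesterol between membranes, had log2 differences of -0.15 and -0.30.

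In the fatty acid branch, 1 of 8 genes was at least 1.5-fold lower in both knockdowns and none was higher. Of all genes, 8.05% were lower and 6.35% higher in both. By any amount, 7 of the 8 lay below NC in both, where 39.3% of all genes did. FASN, fatty acid synthase, had signals of 16694, 15534 and 15990.5 in the same order. ACACA, the acetyl-CoA carboxylase, had 10565, 10572 and 11007, and ACLY, which makes cytosolic acetyl-CoA from citrate, had 3760, 3814 and 3184. None of these 3 genes was more than 0.23 from NC on the log2 scale. ACSS2, which makes acetyl-CoA from acetate, had signals of 1008, 931 and 1336, log2 differences of -0.49 and -0.55. FADS2, the desaturase that opens the synthesis of polyunsaturated fatty acids, had 338, 426 and 635, which is 50.1% and 65.5% of NC when scaled. Its neighbor in the pathway, FADS1, was at -0.14 and -0.16. SCD, the desaturase of saturated chains, had signals of 2951, 2157 and 3511, lower by 1.26-fold in SMARCA4-KD1 but by 1.66-fold in SMARCA4-KD2. ELOVL6, an elongase of saturated chains, had 650, 730 and 960 by its brightest probe, 1.57-fold and 1.35-fold lower. By the brightest probe of each gene, FADS2 was the only gene of this branch past 1.5-fold in both knockdowns.

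The knockdowns shared a slide, so the difference between them does not span slides. The median absolute difference between them was 0.07 on the log2 scale for the 32 genes and 0.13 for all genes, and none of the 32 genes was 1.5-fold apart between the knockdowns, against 6.6% of all genes. All 32 genes were well above background on every array, but only 19504 of all 22620 genes were, so the wider set includes dimmer genes. For 19 of the 32 genes the knockdown arrays were within 0.1 of each other. The widest gaps, with SMARCA4-KD1 minus SMARCA4-KD2 in log2, were 0.40 for SCD, 0.40 for INSIG1, -0.39 for FADS2 and -0.31 for PMVK, so that SCD and INSIG1 were lower in SMARCA4-KD2 and the others in SMARCA4-KD1.

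Of the 32 genes, 6 had more than 1 probe, which gives a measurement by another sequence. For HSD17B7, the 3 brighter probes had log2 differences of -1.02, -1.01 and -0.94 in SMARCA4-KD1 and -0.75, -0.73 and -0.68 in SMARCA4-KD2. The dimmest HSD17B7 probe, with signals of 27.4, 18.1 and 35.4, was also lower (-0.45 and -0.998, with errors of 0.32 and 0.38). HSD17B7 has a pseudogene of nearly the same sequence elsewhere in the genome, so these probes may not separate the copies. For INSIG2, the other probe was 1064, 1145 and 1644, log2 differences of -0.71 and -0.55, which is just short of 1.5-fold in SMARCA4-KD2. For ELOVL6, the dimmer probe was further below NC (-0.77 and -0.68) than the brighter one, and past 1.5-fold in both knockdowns. The dimmer probes of ACACA (0.10 and -0.01) and SREBF1 (0.13 and -0.08) were near NC like the brighter ones. The dimmer LSS probe (-0.51 and -0.11) differed from the brighter one in SMARCA4-KD1.

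**Figure D3:**
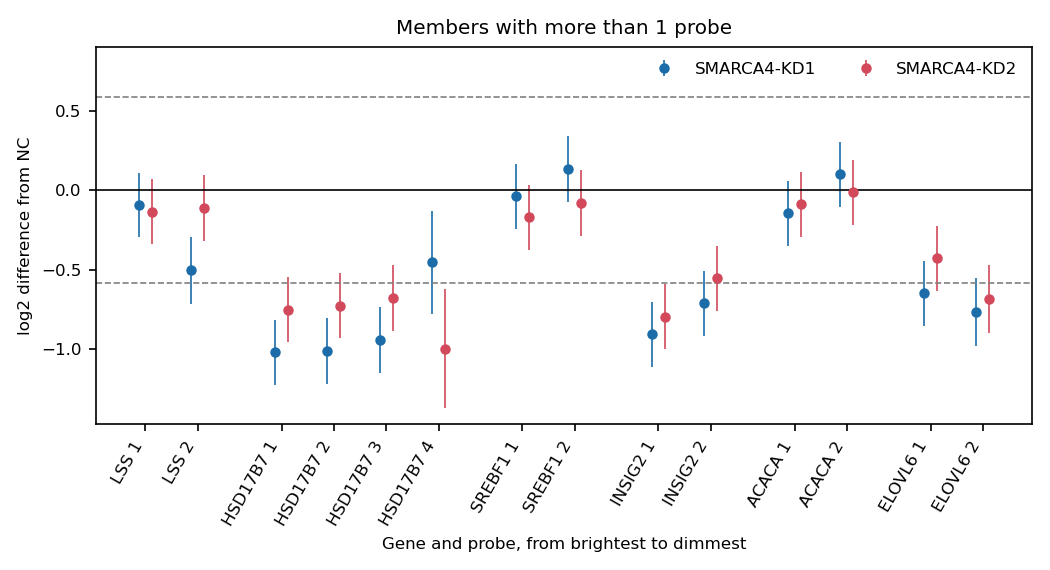
Log2 difference from NC (y axis) for every probe of the 6 genes with more than 1 probe (x axis, numbered from the brightest within each gene), in SMARCA4-KD1 (blue) and SMARCA4-KD2 (red), with the extraction error as bars and 1.5-fold as dashed lines. All 4 HSD17B7 probes, both INSIG2 probes and both ELOVL6 probes lie below 0 in both knockdowns.

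Both knockdowns together were also set against NC with limma, where the fit has only 1 residual degree of freedom and NC is assumed to vary like the knockdowns. After Benjamini-Hochberg adjustment over all 22620 genes, limma called none of the 32 genes and 0% of all genes at 0.05, and the smallest adjusted p was 0.107. At an unadjusted p under 0.05 it gave 17 of the 32 genes (15 lower and 2 higher), or 53.1%, against 30.4% of all genes. The methods' t-test, which the study names for its experiments in general, was run on the same values and called no gene after adjustment. At an unadjusted p under 0.05 in this t-test, the members' share of calls was above that of all genes. At 0.01, the cutoff the study set for its arrays along with 1.5-fold, the members' share was below that of all genes. When only the 19504 genes well above background on all 3 arrays were fitted, limma called 17 of the 32 at an adjusted p of 0.05, against 26.5% of those genes, with the members' own values the same in both fits.

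Other genes of lipid metabolism were taken from hand-written lists. Except for fatty acid oxidation (-0.08, described last), these lists had medians above the 0.03 of all genes. Their counts in both knockdowns stand beside a share of all genes of 8.05% at least 1.5-fold below NC and 6.35% at least 1.5-fold above it. For 13 genes of SREBP processing and sterol-regulated degradation the median of the mean difference was 0.08, with 1 gene at least 1.5-fold lower in both knockdowns and none higher. That gene was SEC23A, a coat protein of vesicles leaving the endoplasmic reticulum, with signals of 3936, 3965 and 6833 in the order SMARCA4-KD1, SMARCA4-KD2 and NC, in which the other genes follow. Of 16 genes of the isoprenoid branches and sterol handling, 15 were measured, with a median of 0.08. PDSS2, which makes the prenyl tail of coenzyme Q, was higher (1407, 1236 and 587), and NPC2, which hands over cholesterol in lysosomes, was lower (18803, 17604 and 30200.2). Across the other processing settings the mean difference of PDSS2 went from 1.11 to as low as 0.59, just past 1.5-fold. With spike-in scaling neither SEC23A nor NPC2 reached 1.5-fold in both knockdowns. Of 29 genes of elongation, fatty acid activation and glycerolipid synthesis, 26 were measured, with a median of 0.13, 3 higher and 1 lower in both. ME1, malic enzyme, a source of NADPH for lipid synthesis, had signals of 1654, 1743 and 742, more than 2-fold above NC in both knockdowns. MID1IP1, which activates acetyl-CoA carboxylase, had 18698, 16979 and 10798 and fell short of 1.5-fold with quantile normalization and with the percentile over detected probes. GPAM, the first acyltransferase of glycerolipid synthesis, had log2 differences of 1.46 and 1.14 by its brightest probe. LPIN1, a phosphatidate phosphatase, had -0.78 and -0.76 by its brightest probe. Neither gene reached 1.5-fold with the mean over its probes or with its second brightest probe. Across these settings the mean difference of both knockdowns went as far as -0.20 for GPAM, on the other side of NC, and -0.07 for LPIN1. LPIN1 also fell short of 1.5-fold with spike-in scaling. For 9 genes of the LXR branch, which opposes sterol accumulation, the median was 0.18. It was 0.34 in SMARCA4-KD1 alone but 0.05 in SMARCA4-KD2 alone. By any amount, 6 were above NC and 3 below it in both knockdowns, where 41.1% and 39.3% of all genes were. NR1H2 (158, 131 and 74.1) and ABCA1 (98.7, 97.0 and 58.9) were at least 1.5-fold higher in both. Both were dim, and with normexp background correction neither reached 1.5-fold in both knockdowns.

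**Figure D4:**
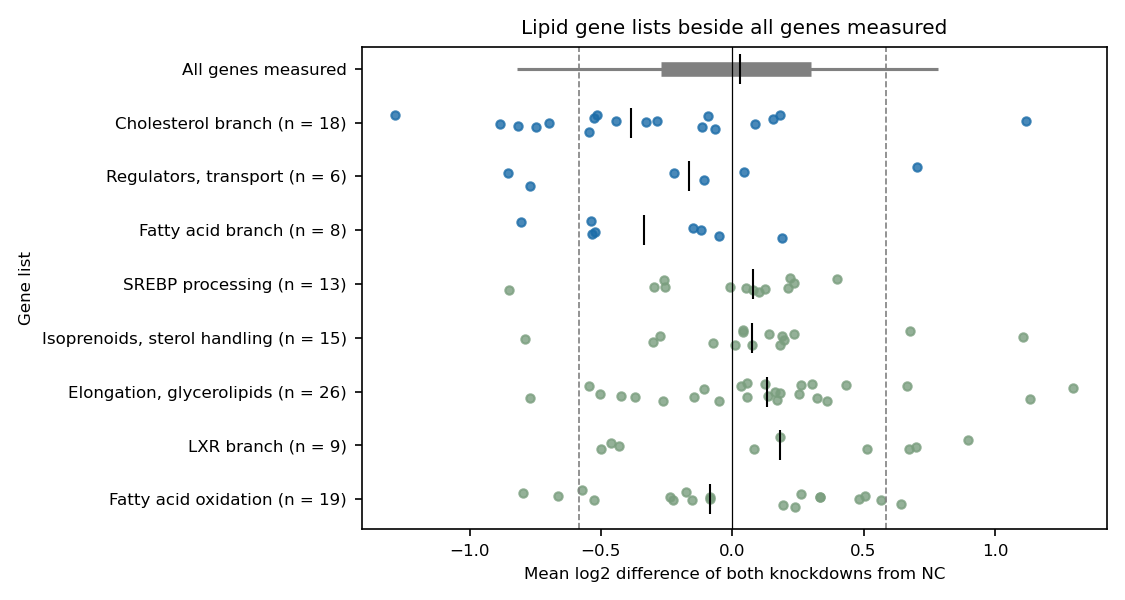
Mean log2 difference of both knockdowns from NC (x axis) for the genes of each list (y axis, 1 point per gene, members in blue and other lists in green), with the median of each list as a tick, spread up and down only for visibility. For all genes measured the thick bar spans the middle 50% and the thin line runs from percentile 5 to percentile 95 (-0.82 to 0.78); dashed lines mark 1.5-fold.

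The promoters of the members were searched for the motifs of factors that act with or as SREBP, in RefSeq windows of GRCh38.p14 from 250 bases before to 50 bases after the start site. Windows were found for 28 of the 32 genes. The motifs were the core of the sterol regulatory element (TCACNCCA), the E-box (CACGTG), the NF-Y box (CCAAT) and the GC box (GGGCGG), on either strand. The sterol regulatory element core was in 3 of the 39 member windows, those of SREBF2, MVK and MSMO1, against 3.95% of all 35116 windows. The NF-Y box was in 25 of the 39 windows against 34.6% of all, the GC box in 35 against 45.0%, and the E-box in 5 against 7.26%. Windows of the same gene can overlap, so a site can count more than once. By gene, the sterol regulatory element core was in 3 of 28 members against 4.80% of all genes. The NF-Y box was in 21 against 39.7%, the GC box in 27 against 48.3%, and the E-box in 4 against 8.77%. The sequences that hold the sterol regulatory element core are shown with the match in capitals, followed by an E-box of INSIG1 and of SCAP, partners that lay on opposite sides of NC, and by an NF-Y box of HMGCS1 and of TM7SF2, the lowest and the highest member:
SREBF2, chr22:41832961-41832990, plus strand: atgacgcgccaTCACCCCAcgcaccgcttc
MVK, chr12:109573588-109573617, plus strand: gttcgcagttcTCACCCCAgggcgggacac
MSMO1, chr4:165327502-165327531, plus strand: tctcactatccTCACTCCAtccgcggagcc
INSIG1, chr7:155297811-155297840, plus strand: gccgggcaggctCACGTGatgcgggccccg
SCAP, chr3:47475982-47476011, minus strand: cgccgctgggcgCACGTGcggagggcggcg
HMGCS1, chr5:43313495-43313524, minus strand: ctaccggccgcgATTGGctgtgggagccac
TM7SF2, chr11:65111786-65111815, plus strand: ccccgagcgccgATTGGctggtgtgctggg
In the windows of HMGCS1 and TM7SF2 the box reads on the opposite strand, as ATTGG. Of the 3 genes with the sterol regulatory element core, MSMO1 was at least 1.5-fold lower in both knockdowns, MVK was below NC by less than that, and SREBF2 was near NC. A match describes the letters of the window and was not tested as a binding site.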

How the data were processed

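Per the file headers and the labels, the authors extracted the intensity of each spot of the 1-colour (Cy3) Agilent arrays with Agilent Feature Extraction 10.7.1.1, which subtracted background and spatial trends within each array but did not normalize between arrays. Gene names and hg19 positions of probes were read from the files. A table for the whole series, also deposited, holds the same intensity, equal to the scanner files within 0.1% for all 40 member probes. The deposited flags were used as given.

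Control spots and outlier spots were left out, spots of a probe were averaged in log2, and the array's 75th percentile (223 for NC, 237 for SMARCA4-KD1 and 228 for SMARCA4-KD2) was subtracted. Values not well above background were set to at least the lowest value well above background on the array. The 29334 probes that any array measured well above background entered, and each of 22620 genes was represented by its brightest. Array noise cannot be estimated from 1 array per condition, so the error given is that of the extraction software, and the spread between cultures is unknown. Folds carry no test. limma 3.58.1 (R 4.3.3) with an intensity trend was fitted to all genes. It was also run on simulated data in which every array had the spread between the knockdown arrays, without a slide difference. Such data cannot show whether its p values hold with NC on another slide. Other steps used Python 3.11.15, pandas 2.3.3, numpy 2.4.6 and matplotlib 3.10.9.

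Named genes are all 32 members, and from the other lists the genes at least 1.5-fold from NC in both knockdowns in the same direction. The members and lists were chosen with earlier results of these data known. Newer symbols absent from the arrays were matched through RefSeq synonyms. Alternatives were quantile normalization, the percentile taken over probes that every array detected, spike-in scaling, normexp with an offset of 50, a stricter filter (every array) and no filter, values without the floor, the mean or the second brightest of a gene's probes, the series-level table, a 2-fold threshold, and for limma no trend, an unadjusted p and the methods' t-test. The siRNA sequences are not reported here.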

Additional observations from a re-analysis of the deposited data

How the results depend on the processing

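Of the 7 genes lower in both knockdowns, all 7 remained so with the percentile over detected probes, both filters, no floor, the mean over probes, the series-level table and quantile normalization, while normexp lost FADS2 and INSIG2 and the second brightest probe lost INSIG2. INSIG1 was gained with quantile normalization, the percentile over detected probes and normexp, MVK with quantile normalization and ELOVL6 with the second brightest probe. TM7SF2 and SCAP remained higher in both under all 10 of these alternatives, spike-in scaling included, where 19.2% of all genes were higher in both. With spike-in scaling, 4 genes were lower in SMARCA4-KD1, 2 were in SMARCA4-KD2 and 1 was in both (5.09%, 3.55% and 2.89% of all genes), and the medians were 0.0083 for SMARCA4-KD1, -0.0041 for SMARCA4-KD2 and 0.0021 for the mean of both, since this scaling adds the same shift to every gene of an array. At 2-fold, 2 genes were lower in SMARCA4-KD1, 1 was in SMARCA4-KD2 and 1 was in both (3.64%, 2.6% and 2.11% of all genes), and 1 gene was higher in each knockdown and in both (3.41%, 2.83% and 1.46%). The medians in SMARCA4-KD1, SMARCA4-KD2 and their mean were -0.39, -0.40 and -0.42 with quantile normalization, -0.35, -0.37 and -0.36 with the percentile over detected probes, and -0.26, -0.28 and -0.27 with normexp. In SMARCA4-KD1 the median was -0.33 with the second brightest probe. Limma called 13 members at an adjusted p of 0.05 with quantile normalization (11.7% of all genes), 9 with spike-in scaling (23.5%), 14 with normexp (16.3%), 17 with the filter on all arrays (26.5%), 17 without a filter (63.2%), 12 without a floor (14.9%), 14 with the series-level table (16.5%) and 17 at an unadjusted p of 0.05 (30.4%), and none with the other alternatives; the cause was not tested. The sign of the mean difference was kept under all alternatives by 22 of the 32 genes and not by the other 10. No paired analysis was possible because each condition has 1 array.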

Other observations

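Fatty acid oxidation breaks down what the fatty acid branch builds. All 19 listed genes were measured, with a median of the mean difference over both knockdowns of -0.08, and 10 were below and 9 above NC in both knockdowns, where 39.3% and 41.1% of all genes were. At least 1.5-fold, 2 were lower and 1 was higher in both, against 8.05% and 6.35% of all genes. CPT2, a carnitine acyltransferase of the inner mitochondrial membrane, had a signal of 905 in NC, of 521 in SMARCA4-KD1 and of 565 in SMARCA4-KD2. ETFDH, which passes electrons from fatty acid oxidation to ubiquinone, had 1805 in NC and 1187 and 1191 in the knockdowns. Both were at least 1.5-fold lower in both knockdowns, but not with spike-in scaling or with normexp background correction. ECI1, an enoyl-CoA isomerase, had 25242 in NC and 41304 and 40809 in the knockdowns and was at least 1.5-fold higher in both, but not with quantile normalization or with the percentile taken over probes that every array detected.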
